A study of Rattus norvegicus with 9 samples.

Results

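Transcripts of 8 genes that encode secreted regulators of blood and lymph vessels were followed in rat synovial fibroblasts, which line the joint and make its fluid and matrix. They are the vascular endothelial growth factor genes Vegfa, Vegfb and Vegfc, the angiopoietin genes Angpt1 and Angpt2, and the angiopoietin-like genes Angptl2, Angptl4 and Angptl8. The genes were chosen by symbol, with earlier results of these data known. All 8 were found among the 17298 genes of the deposited table. The cells, labelled wild type, formed 3 groups of 3 libraries. In the co-culture group they sat in the lower chamber of a transwell, were given the inflammatory cytokine IL-1β and then shared the medium with dermal fibroblasts in the upper chamber. The IL-1β group was given the cytokine without dermal cells, and the control group was kept in routine culture without it. The design addresses how IL-1β changes these cells and how cells given IL-1β differ when dermal fibroblasts share the medium. The sources used here give no strain, sex, age, dose of IL-1β or times, and do not say whether groups without dermal cells had an empty insert. No group analysed here had dermal cells without IL-1β, so a changed IL-1β response cannot be told from an effect of dermal cells alone. Nor can the dermal cells, the insert and the medium be told apart.

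VEGF proteins are ligands of tyrosine kinase receptors carried mainly by endothelial cells. Flt1 and Kdr encode the receptors of vessel growth, and Flt4 that of lymphatic growth. Neuropilins are their co-receptors. Angiopoietins bind the endothelial receptor encoded by Tek: the Angpt1 product activates it and steadies vessels, while the Angpt2 product can oppose it. Angiopoietin-like proteins share the domain structure of angiopoietins but do not bind that receptor, and several of them restrain lipoprotein lipase, the enzyme that releases fatty acids from circulating triglycerides. In inflamed joints the synovium is known for the growth of new vessels, and its fibroblasts are a known source of VEGF.

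The sequences before the transcription starts are shown for 3 genes whose transcripts were higher with IL-1β and for 1 whose transcript was lower. They are the 250 bases upstream of the start in RefSeq's rat assembly GRCr8, written 5′ to 3′ along the gene, and capitals mark every match to the motifs searched. Of the 8 genes, 6 had an entry in the RefSeq promoter table, and Angpt1 and Angpt2 had none there. For Vegfa the farther upstream of its entries is shown. For Angptl4 the annotated gene reaches further upstream than the start used.
Angptl4, chr7:15258682-15258931, minus strand: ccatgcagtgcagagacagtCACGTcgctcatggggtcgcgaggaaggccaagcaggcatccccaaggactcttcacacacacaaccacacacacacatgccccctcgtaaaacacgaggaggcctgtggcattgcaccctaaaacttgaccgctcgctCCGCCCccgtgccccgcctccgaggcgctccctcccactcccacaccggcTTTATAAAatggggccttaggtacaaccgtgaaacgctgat
Vegfa, chr9:22452604-22452853, plus strand: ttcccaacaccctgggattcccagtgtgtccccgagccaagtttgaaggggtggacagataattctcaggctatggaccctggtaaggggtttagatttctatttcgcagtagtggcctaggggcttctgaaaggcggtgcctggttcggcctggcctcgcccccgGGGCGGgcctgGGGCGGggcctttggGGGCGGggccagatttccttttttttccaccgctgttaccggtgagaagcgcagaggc
Vegfc, chr16:44560888-44561137, minus strand: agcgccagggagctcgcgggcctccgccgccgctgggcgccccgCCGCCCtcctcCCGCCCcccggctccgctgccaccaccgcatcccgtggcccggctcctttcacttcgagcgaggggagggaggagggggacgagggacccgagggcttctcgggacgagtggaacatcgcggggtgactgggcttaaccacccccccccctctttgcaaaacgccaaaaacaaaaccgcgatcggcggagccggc
Angptl2, chr3:36914626-36914875, plus strand: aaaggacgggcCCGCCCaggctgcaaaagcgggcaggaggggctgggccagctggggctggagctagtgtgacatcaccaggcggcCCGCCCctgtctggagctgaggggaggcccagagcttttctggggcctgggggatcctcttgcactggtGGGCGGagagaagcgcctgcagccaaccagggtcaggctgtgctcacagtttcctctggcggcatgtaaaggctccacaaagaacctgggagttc
The motifs were searched on both strands and were chosen after the data were seen. The Sp1 core GGGCGG was found in each of the 4 windows and in that of Vegfb. It occurred 3 times in Vegfa, the first bases lying 84, 73 and 58 bases before the start, and 3 times in Angptl2. Of the 33469 windows of the same length in the table, 30.5% held it. The hypoxia response core ACGTG was found once among the members, on the opposite strand of the Angptl4 window 230 bases before the start, and in 16.6% of all windows. The TATA box TATAAA was found in Angptl4 alone among the members, where matches on both strands overlap 41 and 39 bases before the start, and in 12.9% of all windows. The AP-1 motif TGANTCA (6.34% of all windows), the cyclic AMP element TGACGTCA (1.59%), the NF-kB consensus (6.33%) and the PPAR direct repeat, AGGTCA repeated after 1 free base (0.0508%), had 0 matches in the 6 members' windows. The window of Angptl8 held none of the 7 motifs. A match is a run of letters and was not tested as a binding site.

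Levels are FPKM, fragments per kilobase of transcript scaled to the mapped fragments of the library, so they are relative to the library's other RNA. The FPKM sums were 679774 to 741810 per library, and the depth is unknown. Libraries of a group had rank correlations across genes of 0.9946 to 0.9959. Nothing in the labels ties the libraries of a group to different animals or cultures, so the spread behind each p-value may be technical. In RNA from whole cultures, fewer cells of a type and less RNA per cell cannot be told apart. All 10 genes of a fibroblast marker list were above the filter, with summed levels of 10900 to 11100 FPKM in co-culture, 10690 to 10900 FPKM with IL-1β and 11440 to 11940 FPKM in control. The sum hides opposite moves, since 5 of the 10 were higher and 5 lower with IL-1β than in control. Among all genes 20.5% were higher and 31.2% lower. Vim averaged 4342 FPKM in co-culture, 2114 FPKM with IL-1β and 4902 FPKM in control, and Col1a1 2370, 1587 and 3170 FPKM in the same groups. Dcn averaged 1196 FPKM in co-culture, 3112 FPKM with IL-1β and 641 FPKM in control. Of 13 endothelial markers in the table, 12 had a mean under 1 FPKM over the 9 libraries; the exception was Egfl7, at 13.1 FPKM in co-culture, 12.1 FPKM with IL-1β and 13.9 FPKM in control. The group means of Pecam1 lay at 0.19 to 0.39 FPKM and those of Cdh5 at 0.15 to 0.20 FPKM.

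Vegfa, Vegfc, Angpt1 and Angptl4 were higher with IL-1β than in control, and Angptl2 and Vegfb were lower. Co-culture moved all of these but Vegfb back towards control, and none of them reached it. Angptl8 stood apart, since it did not differ with IL-1β beyond the spread between libraries and was higher in co-culture than in both other groups. Angpt2 was near 0 throughout. The fold change was tested for the 7 genes with a mean of at least 1 FPKM, on the scale log2(FPKM + 1), with p-values adjusted over 11372 genes.

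**Figure D1:**
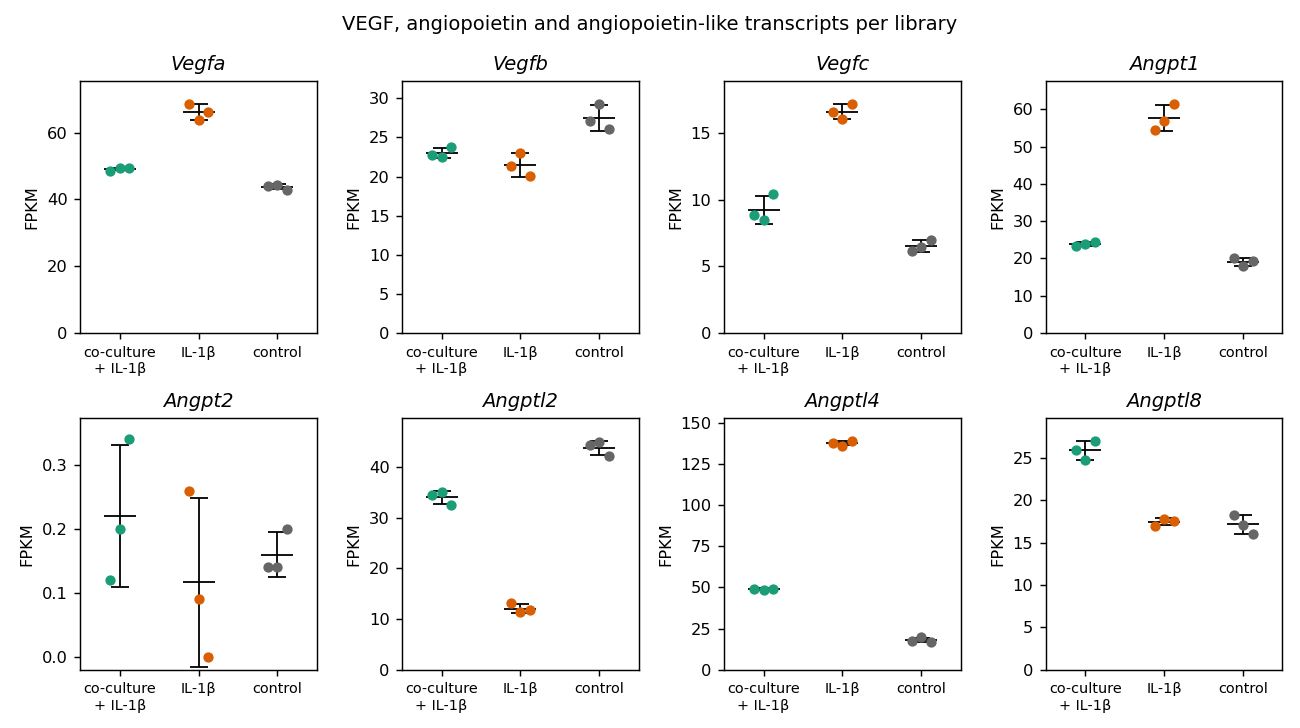
FPKM of the 8 genes in each library (points), with the mean (wide bar) and SD (capped line, n = 3 per group); each panel has its own axis, which starts at 0 except for Angpt2, where the SD of the IL-1β libraries reaches below 0. Angptl4 lies at 136 to 139 FPKM in the IL-1β libraries, Angptl2 is lowest there, and Angptl8 is highest in the co-culture libraries.

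With IL-1β, 6 of the 7 tested members passed an adjusted p of 0.05 against control, 4 higher and 2 lower, where 51.7% of all genes passed, 20.5% higher and 31.2% lower. Changes of at least 1 on the log2 scale were shown by 4 members, 3 of them higher, whereas 2.74% of all genes were higher and 1.86% lower by that much. The median log2 fold change was 0.58 over the members and -0.04 over all genes. Between co-culture and IL-1β alone, 6 of 7 passed, 2 higher and 4 lower, where 50.0% of all genes passed, 33.3% higher and 16.7% lower. The medians were -0.42 over the members and 0.06 over all genes. Changes of at least 1 were shown by 3 members, 1 higher and 2 lower, where 0.739% of all genes were higher and 1.88% lower by that much. Between co-culture and control all 7 tested members passed, 5 higher and 2 lower, where 20.3% of all genes passed, 12.4% higher and 7.91% lower. Of these, 1 member was higher by at least 1, where 0.369% of all genes were higher and 0.0528% lower by that much. The libraries of the compared groups did not overlap for 6 members with IL-1β against control, 4 of them higher, where this held for 58.3% of all genes in either direction and 23.3% as higher. It held for 6 members in co-culture against IL-1β alone, 2 of them higher, and for 56.7% of all genes in either direction and 37.3% as higher. In co-culture against control it held for 7 members, 5 of them higher, and for 37.8% of all genes in either direction and 22.1% as higher. Scaling moved the balance of all calls. In these comparisons 39.7%, 66.6% and 61.0% of the calls were higher, but 51.4%, 50.4% and 54.0% with median-of-ratios scaling, and quantile normalization gave 41.7%, 58.3% and 46.4%; each member's direction and call were the same under both. The first 2 comparisons share the IL-1β libraries, and the others share the co-culture or the control libraries, so they are not independent. The members and gene lists were chosen with earlier results of these data known, so their counts cannot show an excess over all genes.

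**Figure D2:**
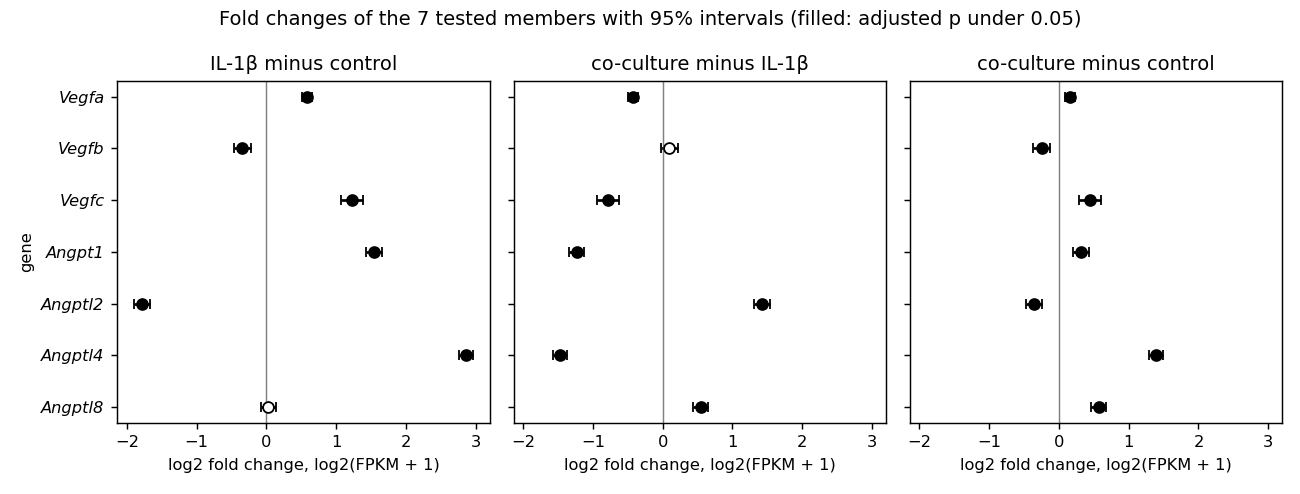
Log2 fold changes of the 7 tested members on the log2(FPKM + 1) scale in the 3 comparisons (points) with 95% intervals from the limma fit (lines); filled points passed an adjusted p of 0.05. Angptl4 and Angptl2 lie farthest from 0 with IL-1β, at 2.86 and -1.78, and Angptl8 and Vegfb have the open points.

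Vegfa, the main growth and permeability factor for endothelial cells, had 48.6, 49.4 and 49.4 FPKM in the co-culture libraries, 68.6, 63.7 and 66.2 FPKM with IL-1β alone and 44.1, 44.4 and 43.0 FPKM in control. The 3 groups did not overlap, with IL-1β highest and co-culture just above control. Vegfa was 1.51-fold higher with IL-1β than in control (log2 fold change 0.58 ± 0.03 SE, adjusted p = 4.11e-08). In co-culture it was 0.742 times the level of IL-1β alone (log2 fold change -0.42 ± 0.03, adjusted p = 1.18e-06) and 1.12 times that of control (0.16 ± 0.03, adjusted p = 0.00546). The values are summed over the gene, so the splice forms of Vegfa are not distinguished.

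Vegfc, the lymphatic growth factor, had 8.89, 8.45 and 10.5 FPKM in co-culture, 16.6, 16.1 and 17.2 FPKM with IL-1β alone and 6.16, 6.44 and 7.01 FPKM in control. The order of the groups was that of Vegfa, again with no overlap. It was 2.54-fold higher with IL-1β than in control (log2 fold change 1.23 ± 0.07, adjusted p = 4.44e-08), a larger difference than that of Vegfa, whose 95% interval of 0.51 to 0.66 lies below the 1.07 to 1.38 of Vegfc. Co-culture lay at 0.557 times IL-1β alone (-0.78 ± 0.07, adjusted p = 3.51e-06) and at 1.42 times control (0.44 ± 0.07, adjusted p = 0.00109).

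Vegfb, a ligand of the Flt1 receptor that is linked to fatty acid handling in vessels, went the other way. It had 22.8, 22.5 and 23.7 FPKM in co-culture, 21.3, 23.0 and 20.1 FPKM with IL-1β alone and 27.1, 29.3 and 26.1 FPKM in control. Control was highest, and the other groups overlapped. Vegfb fell to 0.781 times control with IL-1β (log2 fold change -0.34 ± 0.05, adjusted p = 0.000279) and to 0.837 times control in co-culture (-0.25 ± 0.05, adjusted p = 0.0086). Between co-culture and IL-1β alone the log2 difference was 0.10, with a 95% interval of -0.02 to 0.22 (adjusted p = 0.168).

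Angpt1, whose product activates the Tek receptor and steadies vessels, had 23.4, 23.9 and 24.4 FPKM in co-culture, 54.6, 56.9 and 61.5 FPKM with IL-1β alone and 20.1, 17.9 and 19.3 FPKM in control. The IL-1β libraries stood far above the rest, and co-culture stood above control without overlap. The rise with IL-1β was 3.02-fold (log2 fold change 1.55 ± 0.05, adjusted p = 3.12e-10). In co-culture the level was 0.415 times that of IL-1β alone (-1.23 ± 0.05, adjusted p = 4.12e-09) and 1.25 times control (0.31 ± 0.05, adjusted p = 0.00133). An uncharacterized gene that overlaps Angpt1 in the RefSeq table, LOC102547184, was not among the genes of the deposited table.

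Angpt2, which encodes the context-dependent antagonist made mainly by endothelial cells, was listed at 0.12, 0.20 and 0.34 FPKM in co-culture, at 0.26, 0.09 and 0 FPKM with IL-1β alone and at 0.14, 0.14 and 0.20 FPKM in control. The groups overlapped and the gene was not tested, since its mean of 0.166 FPKM was under the filter. In a fit with no filter its log2 differences were -0.06, 0.13 and 0.07 in the 3 comparisons (adjusted p = 0.646, 0.312 and 0.708). Mcph1, within which Angpt2 lies in the RefSeq annotation, was at 7.15 ± 0.21 FPKM in co-culture, 6.79 ± 0.26 FPKM with IL-1β and 6.61 ± 0.54 FPKM in control (SD, n = 3 each).

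Angptl4, which encodes a secreted inhibitor of lipoprotein lipase and is a known target of hypoxia and of PPAR receptors, changed most. It had 49.3, 48.6 and 49.1 FPKM in co-culture, 138, 136 and 139 FPKM with IL-1β alone and 17.7, 19.7 and 17.0 FPKM in control. Each group kept to a narrow range, and the ranges were far apart. With IL-1β it was 7.59-fold higher than in control (log2 fold change 2.86 ± 0.05, adjusted p = 3.87e-13), which placed it 57th from the top among the 11372 genes. Co-culture had 0.356 times the level of IL-1β alone (-1.47 ± 0.05, adjusted p = 2.94e-10) and still 2.70 times that of control (1.39 ± 0.05, adjusted p = 3.17e-09), the 29th highest of all genes in that comparison.

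Angptl2, whose product is known as an inflammatory mediator from fat and other tissues, had the opposite order of groups, with 34.5, 35.0 and 32.6 FPKM in co-culture, 13.1, 11.3 and 11.8 FPKM with IL-1β alone and 44.3, 44.9 and 42.2 FPKM in control. The IL-1β libraries were lowest and control highest, with co-culture between them and nearer to control. Summed adipocyte markers, described with the other cell type markers, had the same order. It fell to 0.276 times control with IL-1β (log2 fold change -1.78 ± 0.05, adjusted p = 9.15e-11). Co-culture was 2.82-fold above IL-1β alone (1.42 ± 0.05, adjusted p = 1.27e-09), the 30th highest of all genes, and at 0.777 times control (-0.35 ± 0.05, adjusted p = 0.000567). Ralgps1, which Angptl2 overlaps in the RefSeq annotation, was at 0.17, 0.28 and 0.15 FPKM in the group means of co-culture, IL-1β and control.

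Angptl8, which in liver and fat is induced by insulin and takes part in the control of lipoprotein lipase, had 25.9, 24.8 and 27.0 FPKM in co-culture, 17.0, 17.8 and 17.6 FPKM with IL-1β alone and 18.3, 17.1 and 16.1 FPKM in control. The co-culture libraries were above all others, and the IL-1β and control libraries overlapped. Co-culture was 1.48-fold above IL-1β alone (log2 fold change 0.54 ± 0.05, adjusted p = 4.11e-06) and 1.51-fold above control (0.57 ± 0.05, adjusted p = 1.13e-05). The log2 difference between IL-1β and control was 0.03, with a 95% interval of -0.08 to 0.14 (adjusted p = 0.682). Angptl8 lies within Dock6 in the RefSeq annotation, and it is not stated whether counting used strand, so reads of the pair may not be told apart. Dock6 itself did not pass in any comparison, at 7.20 ± 0.13 FPKM in co-culture, 6.87 ± 0.41 FPKM with IL-1β and 7.20 ± 0.34 FPKM in control (SD, n = 3 each).

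The part of the IL-1β change, on the log2 scale, that was left in co-culture differed between the members. It was 20.0% for Angptl2, 20.1% for Angpt1, 27.7% for Vegfa, 36.1% for Vegfc, 48.5% for Angptl4 and 71.7% for Vegfb. These shares use the control libraries in both terms and are given as a description, with no test.

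Ratios of members within a library do not depend on a factor that scales the whole library, though quantile normalization can change them. The ratio of Angptl4 to Angptl2 was 1.43, 1.39 and 1.51 in co-culture, 10.6, 12 and 11.8 with IL-1β alone and 0.400, 0.439 and 0.402 in control. Angptl2 thus exceeded Angptl4 in control only, and the groups were far apart. Vegfa stood at 2.13, 2.19 and 2.08 times Vegfb in co-culture, 3.22, 2.76 and 3.30 times with IL-1β and 1.63, 1.52 and 1.65 times in control. Vegfc was at 0.390, 0.375 and 0.441 of the level of Vegfb in co-culture, 0.779, 0.698 and 0.856 with IL-1β and 0.227, 0.220 and 0.269 in control. Both ratios kept the groups apart, with co-culture between the others.

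**Figure D3:**
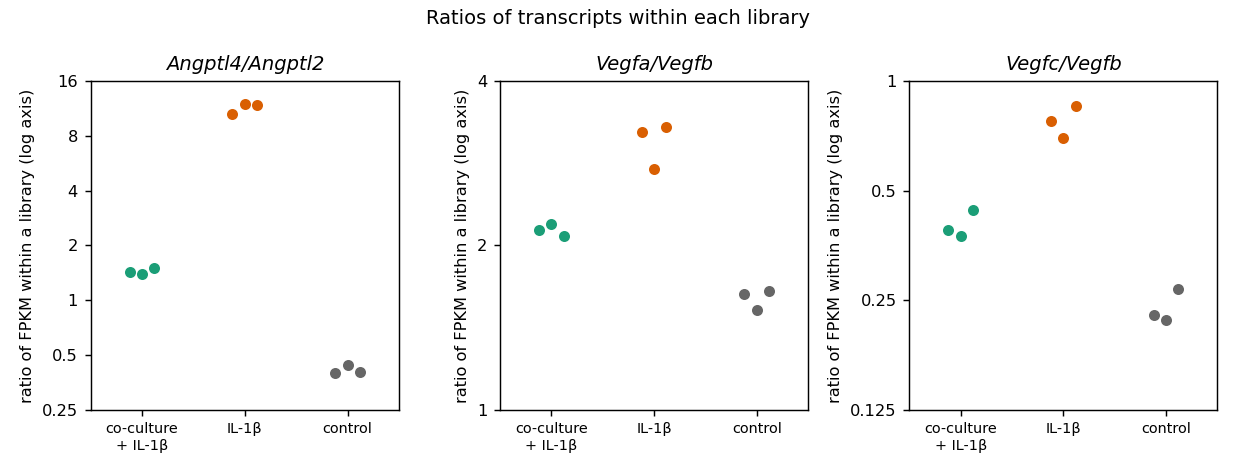
Ratios of FPKM within each library for 3 pairs of members (points, 3 libraries per group; log axes that differ between panels). For each pair the IL-1β libraries are highest, the control libraries lowest and the co-culture libraries between them, as with Angptl4/Angptl2 at 1.39 to 1.51 in co-culture, 10.6 to 12 with IL-1β and 0.400 to 0.439 in control.

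The order of the members' levels per length also differed between the groups. In co-culture Vegfa and Angptl4 led, at 49.1 and 49.0 FPKM with overlapping libraries, followed by Angptl2, Angptl8, Angpt1, Vegfb and Vegfc, of which Angpt1 and Vegfb overlapped. With IL-1β alone Angptl4 led at 138 FPKM, followed by Vegfa, Angpt1, Vegfb, Angptl8, Vegfc and Angptl2, of which Angptl8 and Vegfc overlapped. In control Vegfa and Angptl2 led, both at 43.8 FPKM and overlapping, followed by Vegfb, by Angpt1, Angptl4 and Angptl8, each overlapping the next, and by Vegfc. Angpt2 was last in each group. A mouse genome build is named for these rat libraries, which bears more on levels set between genes than on 1 gene across libraries.

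None of the tested ligands of the same families outside the 8 genes had the group order of Vegfa. Pgf, which encodes the Flt1 ligand placental growth factor, had 6.89, 6.70 and 7.74 FPKM in co-culture, 3.81, 3.06 and 3.69 FPKM with IL-1β alone and 10.8, 12.5 and 11.5 FPKM in control, and the groups did not overlap. Its log2 fold change was -1.48 ± 0.08 with IL-1β against control (adjusted p = 2.2e-08) and 0.85 ± 0.08 in co-culture against IL-1β alone (adjusted p = 4.59e-06). Angpt4, a further ligand of the Tek receptor, averaged 9.82 ± 0.31 FPKM in co-culture, 5.15 ± 0.40 FPKM with IL-1β and 11.9 ± 1.0 FPKM in control (SD, n = 3 each), and passed in all 3 comparisons. Figf, the gene of the lymphatic factor VEGF-D, was at 40.4 ± 1.69 FPKM in co-culture, 39.9 ± 1.06 FPKM with IL-1β and 42.4 ± 1.16 FPKM in control and passed in none; after quantile normalization it passed between IL-1β and control (adjusted p = 0.0492). Angptl1 and Angptl6 were under the filter, Angptl1 at 0.62, 0.72 and 0.56 FPKM in co-culture, 0.17, 0.23 and 0.12 FPKM with IL-1β and 1.01, 0.61 and 0.84 FPKM in control.

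The receptors were mostly near 0. Of 8 receptor, co-receptor and receptor phosphatase genes in the table, 2 were tested, the neuropilins, and the other 6, Flt1, Kdr, Flt4, Tek, Tie1 and Ptprb, had group means of 0.01 to 0.387 FPKM. Nrp2, the co-receptor of the lymphatic factors, was at 88.3 ± 2.21 FPKM in co-culture, 77.3 ± 1.29 FPKM with IL-1β and 98.9 ± 2.65 FPKM in control. Nrp1, that of Vegfa, was at 11.7 ± 0.25 FPKM in co-culture, 9.71 ± 0.32 FPKM with IL-1β and 15.1 ± 0.34 FPKM in control. Both fell with IL-1β against control, with log2 fold changes of -0.35 ± 0.03 for Nrp2 (adjusted p = 2.39e-06) and -0.59 ± 0.04 for Nrp1 (adjusted p = 2.77e-07). Both were higher in co-culture than with IL-1β alone, by 0.19 ± 0.03 and 0.24 ± 0.04 (adjusted p = 0.000455 and 0.00056).

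**Figure D4:**
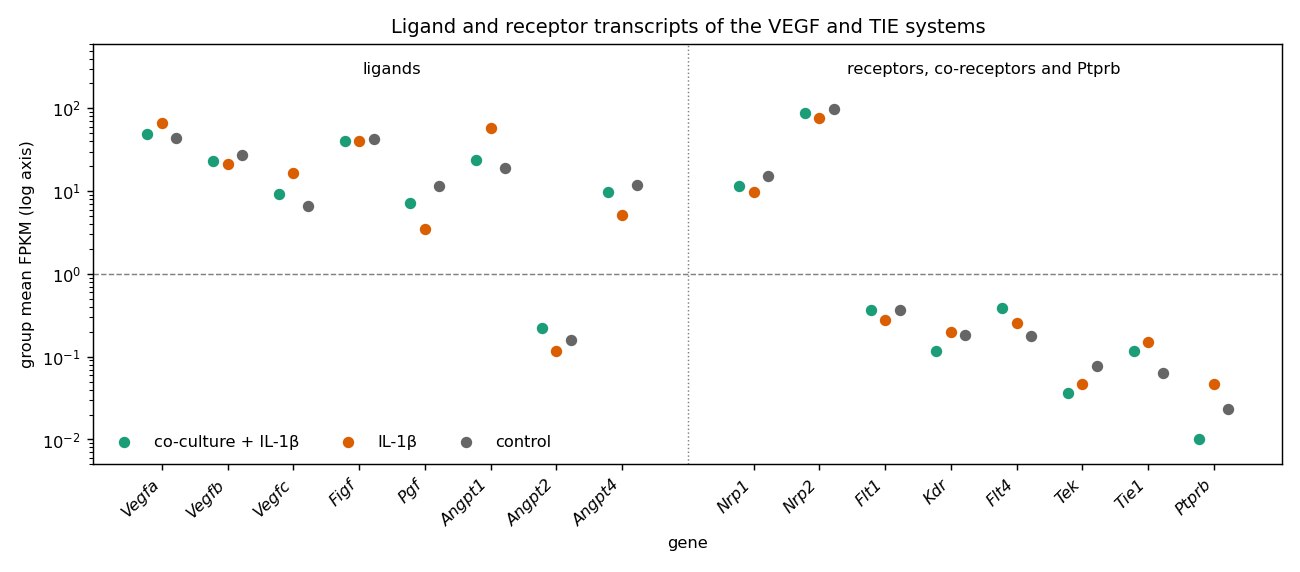
Group mean FPKM (points, n = 3 libraries each, log axis) of VEGF and angiopoietin ligand genes (left of the dotted line) and of receptor, co-receptor and phosphatase genes (right of it); the dashed line marks the filter of 1 FPKM, which was applied to the mean over all libraries. Of the 8 ligand genes plotted all but Angpt2 lie above the line, whereas of the 8 genes on the right Nrp1 and Nrp2 do.

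Genes that sense oxygen were compared beside the members because Vegfa and Angptl4 are known targets of hypoxia-inducible factors. Egln3, a prolyl hydroxylase that marks those factors for decay and is itself induced by them, was at 7.44 ± 0.51 FPKM in co-culture, 80.7 ± 2.03 FPKM with IL-1β and 1.91 ± 0.43 FPKM in control. Epas1, the gene of a hypoxia-inducible factor subunit, was at 14.9 ± 0.59 FPKM in co-culture, 46.7 ± 3.11 FPKM with IL-1β and 12.6 ± 1.05 FPKM in control. Both rose with IL-1β, with log2 fold changes of 4.82 ± 0.09 for Egln3 (adjusted p = 1.99e-12) and 1.82 ± 0.06 for Epas1 (adjusted p = 4.41e-10). Of 8 tested genes of the factors and their sensors, 4 were higher with IL-1β and 0 lower, or 6 and 5 higher under median-of-ratios scaling and quantile normalization. Among all genes 20.5% were higher and 31.2% lower in this comparison. Without rescaling, calls in 4 of 8 genes are close to the 51.7% of all genes that passed in either direction. In co-culture against IL-1β alone 4 were lower and 1 higher, or 6 lower under either scaling. Among all genes 16.7% were lower and 33.3% higher in that comparison.

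The wider hypoxia targets did not move as a block. Of 20 tested, 7 were higher and 9 lower with IL-1β, or 10 and 8 under median-of-ratios scaling, or 6 and 9 under quantile normalization, where 20.5% of all genes were higher and 31.2% lower. Their median change was -0.02 on the log2 scale. Adm, the gene of the vasodilator adrenomedullin, was at 182 ± 7.36 FPKM in co-culture, 462 ± 5.79 FPKM with IL-1β and 134 ± 1.46 FPKM in control. P4ha1, a collagen prolyl hydroxylase gene, was at 257 ± 2.32 FPKM in co-culture, 186 ± 7.96 FPKM with IL-1β and 279 ± 4.62 FPKM in control. Adm thus had the order of Vegfa and P4ha1 that of Angptl2. In co-culture against IL-1β alone, 11 of the 20 were higher and 4 lower, or 8 and 4 after median-of-ratios scaling. Among all genes 33.3% were higher and 16.7% lower in that comparison.

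The lipid side of Angptl4 was followed with targets of PPAR receptors, the receptor genes, lipoprotein lipase and its regulators, and the lipase gene Lipe. Of 13 tested PPAR genes, 3 were higher and 8 lower with IL-1β, where 20.5% of all genes were higher and 31.2% lower. The receptor genes Ppard and Pparg were among the 8 lower. On the log2 scale the median of the 13 was -0.32, and that of all genes -0.04. Among those higher was Cpt1a, which brings fatty acids into mitochondria, at 11.6 ± 0.13 FPKM in co-culture, 18.4 ± 0.71 FPKM with IL-1β and 9.52 ± 0.16 FPKM in control. Plin4, a lipid droplet coat gene, was at 5.31 ± 0.36 FPKM in co-culture, 2.73 ± 0.17 FPKM with IL-1β and 8.45 ± 0.29 FPKM in control. In co-culture against IL-1β alone, 7 of the 13 were higher and 3 lower, where 33.3% of all genes were higher and 16.7% lower.

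Lpl, the gene of lipoprotein lipase itself, had 48.0, 47.3 and 48.9 FPKM in co-culture, 126, 124 and 132 FPKM with IL-1β alone and 51.5, 52.5 and 54.1 FPKM in control. It rose with IL-1β by 1.25 ± 0.03 on the log2 scale (adjusted p = 4.03e-11), and in co-culture it was below control by a log2 fold change of -0.13 ± 0.03 (adjusted p = 0.017), whereas Angptl4 was still above control. Of 6 tested genes of the lipase list, 1 was higher and 3 lower with IL-1β, or 1 and 2 after median-of-ratios scaling. Among all genes 20.5% were higher and 31.2% lower. In co-culture against IL-1β alone 3 were higher and 1 lower, or 2 and 2 after median-of-ratios scaling, where 33.3% and 16.7% of all genes were. Lipe, a lipase gene of fat droplets, was at 5.37 ± 0.19 FPKM in co-culture, 2.83 ± 0.30 FPKM with IL-1β and 7.41 ± 0.37 FPKM in control.

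Among the summed markers of other cell types, only those of adipocytes kept all 3 groups apart. Of 9 adipocyte markers in the table, 2 had a mean under 1 FPKM, and the summed level was 640 to 665 FPKM in co-culture, 542 to 563 FPKM with IL-1β and 821 to 869 FPKM in control. Of the 7 tested, 5 were lower and 0 higher with IL-1β than in control, where 31.2% of all genes were lower and 20.5% higher. In co-culture against IL-1β alone 4 were higher and 1 lower, where 33.3% of all genes were higher and 16.7% lower. All 7 were lower in co-culture than in control, where 7.91% of all genes were. Pparg and Fabp4 were also counted among the PPAR genes, and Lipe in the lipase list. Adipoq, the adiponectin gene, was at 26.9 ± 0.88 FPKM in co-culture, 14.2 ± 0.12 FPKM with IL-1β and 38.7 ± 1.95 FPKM in control. Plin1, a lipid droplet coat gene, was at 11.9 ± 0.60 FPKM in co-culture, 6.85 ± 0.29 FPKM with IL-1β and 16.4 ± 0.26 FPKM in control. Fabp4 made up most of the sum, at 428 ± 12.7 FPKM in co-culture, 338 ± 17.1 FPKM with IL-1β and 565 ± 20.7 FPKM in control. The sum and these 3 genes had the group order of Angptl2 and of the means of Vegfb, and not that of Angptl4 or Angptl8. Not all markers of the list did: Cfd and Retn had their lowest means in co-culture. Cfd averaged 134.8, 144.5 and 156.3 FPKM in co-culture, IL-1β and control, and Retn 32.2, 38.9 and 44.1 FPKM. The leptin gene Lep averaged 0.02 FPKM in co-culture and was listed at 0 in the other groups. The part of these markers in the members' levels was not tested.

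Of 9 macrophage and leukocyte markers, 6 had a mean under 1 FPKM, and the sum was 27.2 to 29.2 FPKM in co-culture, 37.4 to 41.9 FPKM with IL-1β and 26.8 to 29.1 FPKM in control. Cd14, the gene of an endotoxin co-receptor, was at 15.9 ± 0.30 FPKM in co-culture, 22.7 ± 0.82 FPKM with IL-1β and 13.5 ± 0.59 FPKM in control, and Cd68, a lysosomal gene, at 2.19 ± 0.44, 4.77 ± 0.88 and 2.30 ± 0.45 FPKM in the same groups. Both rose with IL-1β (adjusted p = 7.71e-08 for Cd14 and 0.000537 for Cd68), whereas Lyz2, the third tested gene of the list, fell. Among those under the filter, Mrc1, Adgre1, Itgam and Cd163 had their highest group means with IL-1β, at 1.54, 1.22, 0.64 and 0.47 FPKM, while Ptprc and Csf1r had their lowest there, at 0.07 and 0.31 FPKM. The sum was highest in the group where Vegfa, Vegfc, Angpt1 and Angptl4 were highest, and its part in their levels was not tested.

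Pericyte and smooth muscle markers summed to 113 to 117 FPKM in co-culture, 113 to 119 FPKM with IL-1β and 115 to 120 FPKM in control, of which Pdgfrb made up most, at 88.6 ± 0.89, 105 ± 2.59 and 87.4 ± 2.04 FPKM in these groups. Under that sum single genes moved apart: of 5 tested, 1 was higher and 3 lower with IL-1β than in control, or 1 and 2 after median-of-ratios scaling. Among all genes 20.5% were higher and 31.2% lower. Des, the desmin gene, was at 13.0 ± 0.28 FPKM in co-culture, 3.55 ± 0.33 FPKM with IL-1β and 14.4 ± 0.76 FPKM in control, and Cspg4, a pericyte proteoglycan gene, at 6.72 ± 0.32, 2.77 ± 0.08 and 8.77 ± 0.15 FPKM in the same groups. Their means had the group order of Angptl2, and their part in its level was not tested. Of 6 keratinocyte markers 3 were in the table, with sums of 1.70 to 2.22 FPKM in co-culture, 1.1 to 1.51 FPKM with IL-1β and 1.21 to 1.64 FPKM in control.

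The genes most like each member were sought among the 11372, by the root-mean-square difference of log2(FPKM + 1) over the 9 libraries after centring each gene on its mean. The search covered the 6 members whose group means spanned at least 0.5 on that scale. For Angptl4 they were Nov, Upp1 and Ptx3, at 0.144 to 0.174, and for Angpt1 they were Arrdc3, Plpp3 and Slc16a1, at 0.055 to 0.067. For Vegfc they were Il1r1, the gene of the IL-1 receptor, Arl15 and Pld1, at 0.069 to 0.077. For Vegfa they were Ltbp2, Atp2a2 and Bcor, at 0.029 to 0.032, and for Angptl2 they were Ctgf, Hpgd and Cdhr1, at 0.083 to 0.099. Angptl8 was nearest to Erfe, Itga3 and Cst6, at 0.063 to 0.089. Erfe, which encodes the iron hormone erythroferrone, averaged 13.8 FPKM in co-culture, 9.55 FPKM with IL-1β and 9.53 FPKM in control. Pearson correlations over the 9 libraries were 0.944 to 0.999; the libraries fall into 3 groups, so they describe group means more than independent points.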

How the data were processed

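Polyadenylated RNA was sequenced from 9 libraries, 3 per group, with groups taken from the sample titles. The deposited values were FPKM, computed by the authors, per the file headers, and written with 2 decimals. The aligner, quantifier and annotation were not given in the sources used here. The submitters' processing notes name GRCm 38, which is a mouse build, but all 8 members matched rat RefSeq by their gene identifiers; the reference behind the values is unsettled. Depth is unknown: of 83 genes above 0 in exactly 2 libraries and at least 0.1 FPKM in both, 35 had a ratio of the values under 1.1 and 14 one of 1.9 to 2.1, too coarse to recover reads.

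Genes with a mean of at least 1 FPKM over the 9 libraries were kept. The log2(FPKM + 1) values went into limma (version 3.58.1; R version 4.3.3), each group having 1 coefficient, with empirical Bayes moderation with trend and robust settings. Two-sided p-values received a Benjamini-Hochberg adjustment over those genes, and the threshold was 0.05. Errors after ± are standard errors for log2 fold changes and SD for levels. Folds are ratios of mean FPKM, and log2(FPKM + 1) understates the change of low genes. The fit was tested on simulated data. Alternatives were another pseudocount, other filters, scalings and moderation, fits to 2 groups, the replicate number as a block, and leaving out each library.

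The members and lists were chosen with earlier results of these data known. Named were all members, other ligands and receptors, the 2 genes with the smallest p of each list with IL-1β against control and in co-culture against IL-1β, and the 3 genes nearest to each member. Chosen after their values were seen were Ccbe1, the cell type markers named and the genes that overlap members. Promoters came from RefSeq GRCr8 and figures were drawn with matplotlib.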

Additional observations from a re-analysis of the deposited data

How the results depend on the processing

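Under 17 alternative settings all 357 recomputed fold changes of the 7 tested members kept their side of the threshold, and none that passed changed sign. The number of members that passed was 6, 6 and 7 in IL-1β against control, co-culture against IL-1β and co-culture against control under each of them, also when each library was left out. Among all genes the counts ranged from 4839 to 6341, 4817 to 5879 and 1662 to 2306. Angptl4 with IL-1β ranged from 2.82 to 2.92 on the log2 scale, and Vegfa in co-culture against control, the smallest called change, from 0.14 to 0.17, with adjusted p up to 0.0271. The values nearest to a changed call were those of Vegfb between co-culture and IL-1β, from 0.03 to 0.15 (adjusted p from 0.0503 to 0.672). Angptl8 with IL-1β, which never passed, ranged from -0.02 to 0.08.

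The titles give each group the numbers 1 to 3 without saying what they stand for. Deviations from group means correlated by -0.046 to 0.189 between libraries of the same number. Between libraries of different numbers they correlated by -0.221 to 0.133. With 3 libraries per group, these values cannot decide whether a number marks a shared animal, culture or batch. With the replicate number as a block, 6, 6 and 7 members and 5858, 5708 and 2227 genes passed. Precision rests on 3 libraries per group, since the depth is unknown, and Angpt2 is too low to compare. The pairs Angptl8 and Dock6, Angptl2 and Ralgps1, and Angpt2 and Mcph1 overlap in the genome, which gene-level values cannot resolve.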

Other observations

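Genes that process or present VEGF proteins, or act on the members' products after secretion, were also split. Of 10 tested genes of VEGF processing and presentation, 7 were higher and 3 lower with IL-1β, where 51.7% of all genes passed in either direction. Mmp9, the gene of a gelatinase that frees matrix-bound VEGF, was at 17.0 ± 1.07 FPKM in co-culture, 621 ± 8.10 FPKM with IL-1β and 0.59 ± 0.03 FPKM in control. Its log2 fold change of 8.61 with IL-1β was the highest of the 11372 tested genes (limma adjusted p = 8.05e-17), and in co-culture it was lower than with IL-1β alone, the log2 fold change being -5.11 (adjusted p = 1.8e-14 from limma). Sdc4, a heparan sulfate proteoglycan gene, was at 173 ± 2.24 FPKM in co-culture, 310 ± 4.53 FPKM with IL-1β and 147 ± 1.05 FPKM in control (SD, n = 3 each). Ccbe1, whose product is needed to activate the Vegfc protein, had an order of its own, at 37.2 ± 1.16 FPKM in co-culture, 31.3 ± 1.19 FPKM with IL-1β and 25.3 ± 1.25 FPKM in control, and was named after its values were seen. It passed in all 3 comparisons, with a log2 fold change of 0.54 in co-culture against control (limma adjusted p = 7.06e-06).

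Of 12 tested secreted regulators of angiogenesis, 4 were higher and 6 lower with IL-1β, where 20.5% of all genes were higher and 31.2% lower. They were listed as inhibitors, but not all act only in that way, Vash2 among them. In co-culture against IL-1β alone 6 were higher and 5 lower, or 3 higher and 5 lower after median-of-ratios scaling. Among all genes 33.3% were higher and 16.7% lower there. Adamts1, a metalloproteinase gene, was at 109 ± 1.5 FPKM in co-culture, 118 ± 2.72 FPKM with IL-1β and 82.3 ± 1.06 FPKM in control. Thbs2, a thrombospondin gene, was at 457 ± 0.83 FPKM in co-culture, 364 ± 4.10 FPKM with IL-1β and 495 ± 6.25 FPKM in control. Timp3, whose product blocks Vegfa from its receptor besides inhibiting metalloproteinases, was at 3.27 ± 0.16 FPKM in co-culture, 8.49 ± 0.25 FPKM with IL-1β and 4.54 ± 0.12 FPKM in control. Timp3 in co-culture thus lay below both other groups, and its log2 fold change against control was -0.37 (adjusted p = 0.000393 from limma).

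Of 6 tested receptor genes of angiopoietin-like proteins, 5 were higher and 0 lower with IL-1β, or 4 and 1 after quantile normalization. Among all genes 20.5% were higher and 31.2% lower. In co-culture against IL-1β alone 4 were lower and 0 higher, where 16.7% of all genes were lower and 33.3% higher. The tested genes were integrin subunits, Tlr4 and Sdc4, and Sdc4 was also counted among the VEGF processing genes. Pirb and Lilrb3, also on the list, had group means of 0.0133 FPKM or less and were not tested. Itgav, an integrin subunit gene, was at 49.5 ± 0.97 FPKM in co-culture, 58.3 ± 1.83 FPKM with IL-1β and 48.5 ± 1.26 FPKM in control.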
